A study of Mus musculus with 6 samples.

Results

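The genes described here are DNA repair genes of mouse cortical neurons, compared for how completely their RNA was spliced. The members were chosen by gene symbol from a list of 52 genes of homologous recombination, the Fanconi anaemia pathway, damage signalling, excision repair, mismatch repair and end joining. The list was drawn up with earlier results of these data known. The measured value used in the choice was the presence of a score, so no count or p over the list is evidence of its own. Of the 52, 50 had a score among the 15705 genes of the deposited table. Bard1, which encodes the partner of BRCA1, and Lig4, the ligase gene of end joining, were not analysed here.

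The N40K neurons received a lentivirus carrying N40K, the N-terminal fragment of U1-70K, which is the protein of the U1 snRNP encoded by Snrnp70. The control neurons received virus of the vector FCK1.3GW, and the N40K virus was built on the same vector. As background, this plasmid is known for EGFP behind a short CaMKII promoter, which is active in excitatory neurons; the labels describe neither the promoter nor whether N40K took the place of EGFP. All neurons came from C57BL/6 mouse embryos at embryonic day 18 and were grown for 7 days before 3 days of virus, and each group had 3 libraries. No label states that the replicates came from separate cultures, or how many cells took up the virus, so the spread that the p-values rest on may be technical. Libraries were stranded, made from poly(A) RNA of whole cultures, and a change in the mix of cells cannot be told apart from a change within cells.

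The U1 snRNP recognises the start of introns by base pairing. The deposited value is an Sd score per gene and library, read here as splicing deficiency, and taken as a ratio that is higher where more of a gene's RNA is unspliced. Neither its formula nor the reads behind it could be read from the labels or the table, so depth is unknown, and a score does not measure the amount of RNA. Repair genes guard the genome by separate routes. Homologous recombination copies a sister chromatid and serves dividing cells, whereas neurons, which no longer divide, join broken ends directly and rely on excision repair for oxidised bases and for lesions that stall transcription. Inherited defects of several of these genes cause neurological disease, as in ataxia telangiectasia and Cockayne syndrome.

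Across all genes the Spearman rho between libraries was 0.983 to 0.987 within a group and 0.957 to 0.969 between the groups. Snrnp70 itself scored 0.0233 ± 0.000902 in N40K neurons and 0.0216 ± 0.000656 in control neurons (SD, n = 3 each; limma adjusted p = 0.376), and whether reads of the N40K insert entered it is not stated. All neuron markers looked for had a score (Map2 under its older symbol Mtap2), as did 5 of 5 astrocyte, 4 of 5 oligodendrocyte, 3 of 5 microglia and 5 of 6 cell division markers. Scores cannot give the share of these cells. Of these markers Camk2a (log2 change 0.17) and the microglial gene Csf1r (0.76) rose, and the part of other cell types in the results below was not tested.

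Many of the repair genes had higher scores in N40K neurons, and few had lower ones. Of the 50 members, 23 rose, 2 fell and 25 did not pass (limma on log2(score + 0.01), Benjamini-Hochberg adjusted p under 0.05 over all genes). Those counts are 46.0% and 4.0% of the members, and over all genes 21.5% rose and 4.11% fell. Every N40K score was higher than every control score in 29 members (58.0%) and lower in 3 (6.0%), where the same held for 33.6% and 8.67% of all genes. The median log2 change was 0.17 among the members and 0.06 over all genes. The median score of the members was 0.0164, 0.0164 and 0.019 in the N40K libraries, against 0.0136, 0.0112 and 0.0126 in the control libraries. The groups did not overlap in this median, nor in that over all genes, which was 0.0146, 0.0153 and 0.0163 in the N40K libraries, against 0.0136, 0.0127 and 0.0133 in the control libraries. The count of rises depended on scaling and on single libraries: 12 rose and 4 fell under median centring, which gives every library the same median log2 score and took away a shift of 0.13, and 13 rose and 3 fell under quantile normalization. Over all genes 9.75% then rose and 18.4% fell under median centring, and 2022 of the 15705 genes rose and 1883 fell under quantile normalization. Leaving out 1 library gave 17, 11 and 11 rises without control 1, 2 and 3, and 22, 15 and 16 without N40K 1, 2 and 3. The share of all genes that rose moved too, to 12.9%, 10.3% and 10.4% without control 1, 2 and 3, and to 23.7%, 13.3% and 15.1% without N40K 1, 2 and 3.

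**Figure D1:**
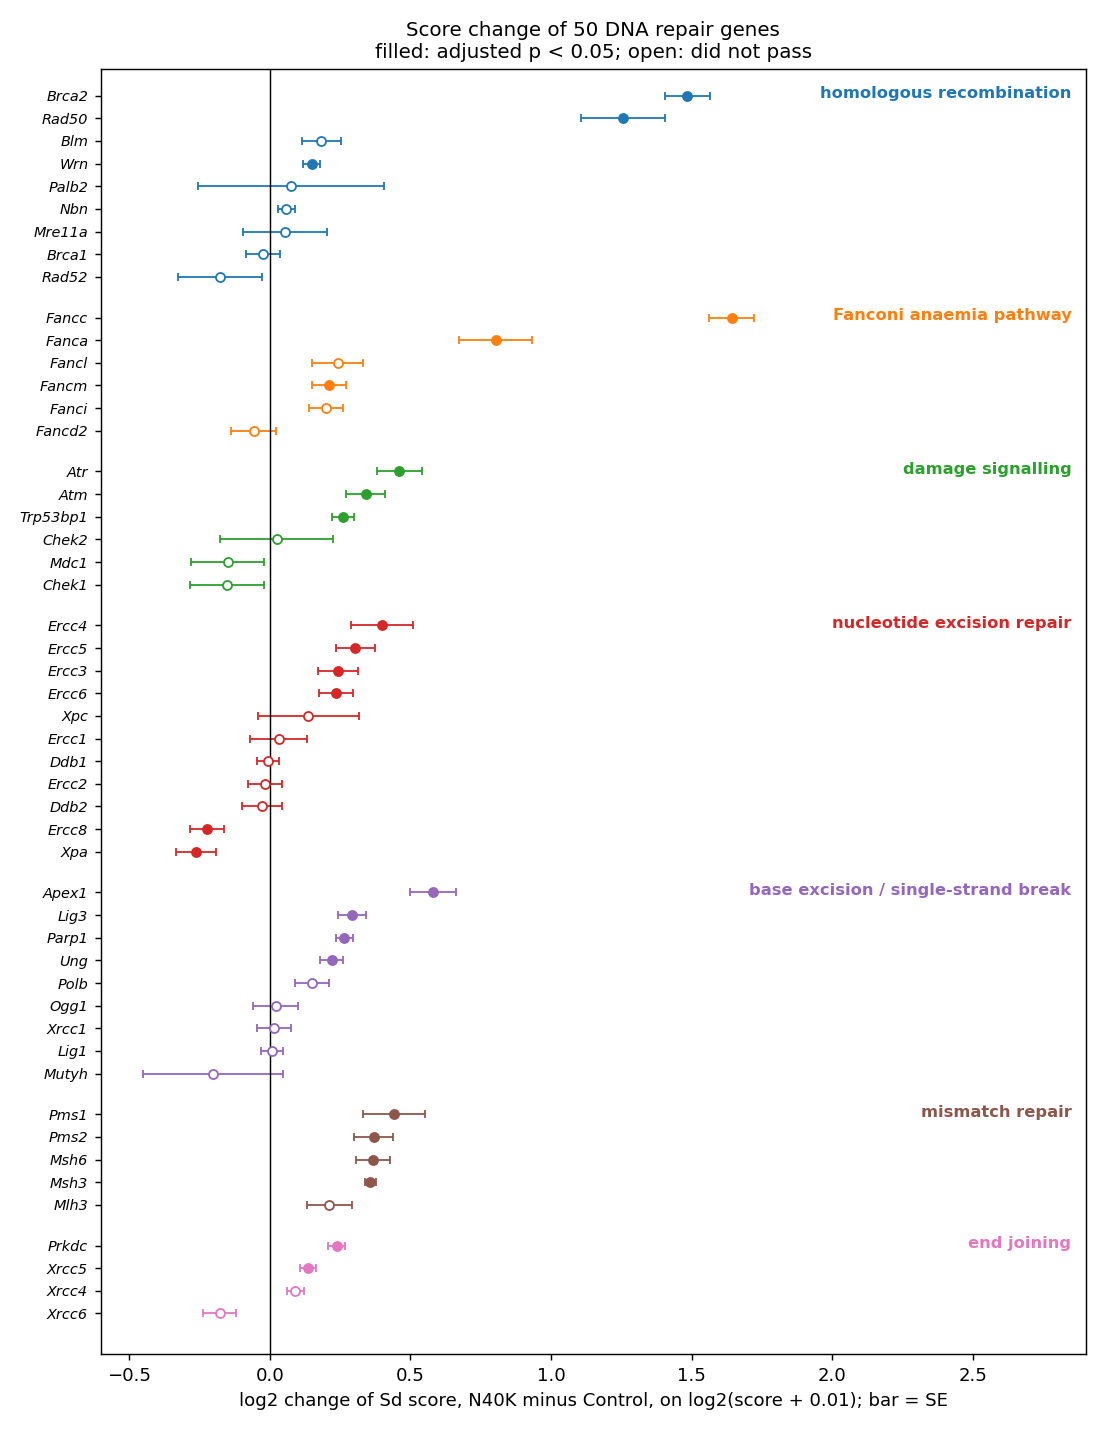
Log2 change of the score (N40K minus control, on log2(score + 0.01), horizontal axis) with its SE for each of the 50 repair genes, grouped by pathway; filled points passed limma at an adjusted p under 0.05. Fancc, Brca2 and Rad50 lie beyond 1, and every member of mismatch repair lies to the right of 0.

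The count of rises is given here by pathway, and a difference between pathways was not tested. Over all genes 21.5% rose and 4.11% fell. Mismatch repair had 4 rises among 5 genes and end joining 2 among 4. The Fanconi anaemia pathway and damage signalling had 3 among 6 each, and base excision with single-strand break repair had 4 among 9. Nucleotide excision repair had 4 rises among 11 genes and held both falls, and homologous recombination had 3 rises among 9. The median log2 change ran from 0.03 in nucleotide excision repair to 0.37 in mismatch repair, with 0.08 in homologous recombination, 0.11 in end joining, 0.14 in damage signalling, 0.15 in base excision and 0.23 in the Fanconi pathway.

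**Figure D2:**
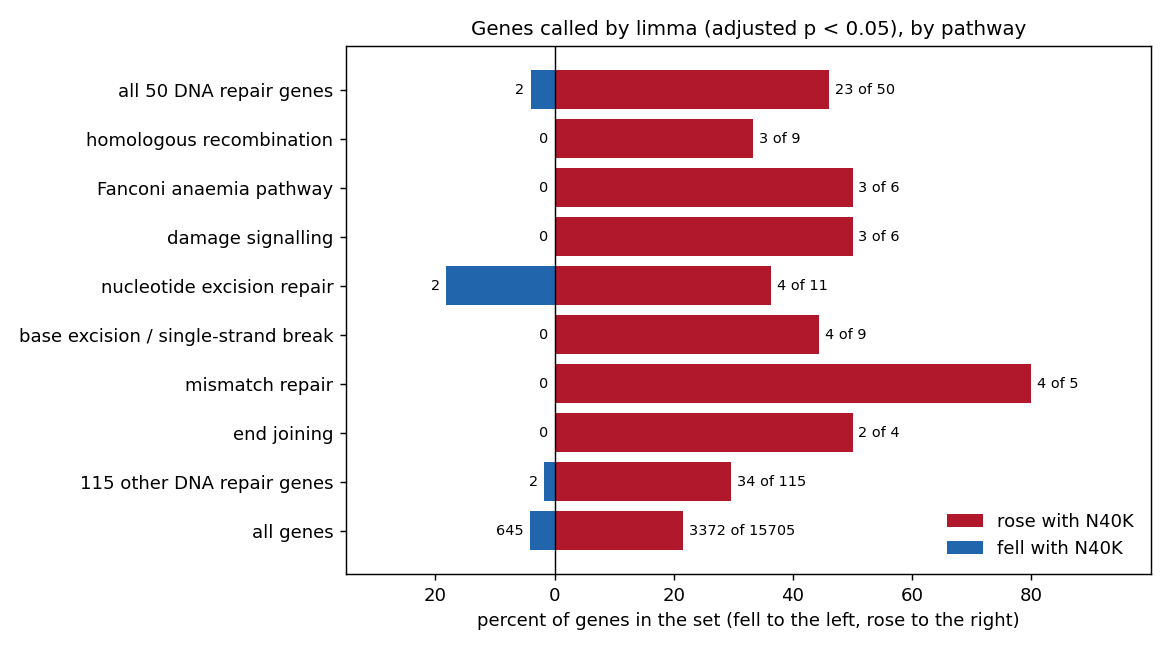
Share of genes that rose (red, to the right) or fell (blue, to the left) with N40K, in percent of each set, with the counts beside the bars. Mismatch repair has the longest bar, with 4 of 5, the 50 repair genes stand at 46.0%, and all 15705 genes at 21.5%.

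In the Fanconi anaemia pathway, whose proteins unhook crosslinked DNA strands, the core complex genes Fancc and Fanca moved most. Fancc, a subunit of the core complex that ubiquitinates FANCD2 and FANCI, scored 0.0353, 0.0365 and 0.0332 in N40K neurons, against 0.0055, 0.0046 and 0.0032 in control neurons. Its groups stood far apart, with a ratio of means of 7.89 and a log2 change of 1.64 ± 0.08 (SE; limma adjusted p = 0.000911), the highest among the members. Fanca, another core subunit, scored 0.0896, 0.0788 and 0.1042 in N40K neurons, against 0.0552, 0.0418 and 0.0462 in control neurons, a log2 change of 0.80 ± 0.13 (adjusted p = 0.011). Both calls passed under each of the 17 other settings. The unfiltered fit among these settings repeated the main fit, as the filter left out no gene. By the GENCODE annotation Fancc spans 212 kb, overlaps 10 other genes, among them the microRNA genes Mir23b, Mir27b and Mir24-1 and the coding gene 2010111I01Rik, and Fanca overlaps Zfp276. Whether reads of these neighbours entered the scores was not tested.

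In the other members of the pathway the changes were smaller. Fancm, the translocase that brings the core complex to DNA, averaged 0.00833 ± 0.000961 in N40K neurons and 0.00583 ± 0.000874 in control neurons (SD, n = 3 each), a log2 change of 0.21. The call of Fancm (limma adjusted p = 0.0466) was lost on removal of control 2 or 3 or N40K 2 or 3, taken out one at a time (highest adjusted p = 0.134) and under median centring (0.183). Fancl, the ubiquitin ligase itself, had a ratio of 1.62 and did not pass (adjusted p = 0.0939), although its groups did not overlap: 0.0061, 0.0056 and 0.0095 in N40K neurons and 0.0044, 0.0044 and 0.0043 in control neurons. The third N40K library alone was well above the others. Of the substrate pair, Fanci had a log2 change of 0.20 (adjusted p = 0.0668) and Fancd2 of -0.06 (adjusted p = 0.686), and neither passed.

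Since the last exon bases pair with the start of U1 snRNA, the exon ends of Fancc and of Xpa, the fallen gene with the lowest log2 change, are given here from the GENCODE M21 transcripts on GRCm38. Fancc lies on chromosome 13 and Xpa on chromosome 4. Each line is the last stretch of a coding exon that is followed by another, numbered from the first exon of the transcript, with the last 3 bases in capitals.
Fancc exon 2: ttgaaggagATG
Fancc exon 3: tcttagcatATG
Fancc exon 4: tcgtggatcCGG
Fancc exon 5: ttgcttaaaAAT
Fancc exon 6: cactcaaagTCG
Fancc exon 7: ggccttcttGTC
Fancc exon 8: gagtcattcCTG
Fancc exon 9: tgaaatgttCAG
Fancc exon 10: gaaaacaagCAG
Fancc exon 11: agcaccctgAAG
Fancc exon 12: ctgtactcgTGG
Fancc exon 13: gagcagagcATG
Fancc exon 14: gctgtcaccCAT
Xpa exon 1: cggccaccgGAG
Xpa exon 2: ttcatgaacCAG
Xpa exon 3: tgacagctgCAG
Xpa exon 4: ctaaagctaCAG
Xpa exon 5: aaaaagtaaAAG

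Of these coding exon ends, 3 of 13 in Fancc and 5 of 5 in Xpa end in AG, the letters most common at this place, and 3 of 13 in Fancc have no final G. Over all exon ends of the 50 members, the share in AG had a Spearman rho of -0.02 with the log2 change and the share with a final G a rho of -0.21. Across 14820 genes of the table these were 0.02 and -0.06. The median share in AG was 63.6% in the members that rose, 81.8% in the 2 that fell and 60.7% in those that did not pass. The median share with a final G was 85.0%, 90.9% and 88.4% in the same order. Brca2, the second highest change, had 73.1% of its exon ends in AG and 96.2% with a final G.

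In homologous recombination 2 genes moved far and most of their partners did not pass. Brca2, a mediator of strand exchange, scored 0.1345, 0.127 and 0.1471 in N40K neurons, against 0.0452, 0.0409 and 0.0406 in control neurons. The groups were well separated, with a ratio of 3.22 and a log2 change of 1.48 ± 0.08 (SE; limma adjusted p = 0.00132). Brca1 averaged 0.00923 ± 0.00138 in N40K neurons and 0.00953 ± 0.000208 in control neurons (adjusted p = 0.81), and passed as a fall under median centring (adjusted p = 0.0436). Palb2, the bridge between BRCA1 and BRCA2, had the highest mean score of the members over all libraries, 0.124 ± 0.0514 in N40K neurons and 0.115 ± 0.0342 in control neurons, with overlapping groups (adjusted p = 0.899).

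Rad50 belongs to the complex that first holds and trims broken ends. Its scores were 0.0224, 0.0174 and 0.0317 in N40K neurons, against 0.0047, 0.004 and 0.0032 in control neurons. The ratio was 6.01 and the log2 change 1.26 ± 0.15 (SE; limma adjusted p = 0.00514), and the calls of Rad50 and Brca2 passed under each of the 17 other settings. The other subunits of this complex did not pass with scores as deposited: the nuclease gene Mre11a had a log2 change of 0.05 (adjusted p = 0.837) and Nbn of 0.06 (0.244). Mre11a scored 0.0114, 0.0153 and 0.0198 in N40K neurons, against 0.0182, 0.0132 and 0.012 in control neurons, and Nbn 0.0036, 0.0041 and 0.0045 in N40K neurons, against 0.0034, 0.0039 and 0.0032 in control neurons. The groups overlapped for both, and neither passed in any of the settings in which it was tested, 17 for Mre11a and 16 for Nbn. Under median centring both turned slightly negative, at -0.08 and -0.07.

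The helicase gene Wrn rose, with 0.005, 0.006 and 0.0056 in N40K neurons and 0.0043, 0.0041 and 0.0036 in control neurons (limma adjusted p = 0.0265). That result was lost on removal of each library but N40K 1 (highest adjusted p = 0.0866) and under median centring (0.724). Its relative Blm had a ratio of 1.16 and did not pass (adjusted p = 0.131), nor did Rad52, a strand annealing factor, with 0.0288 ± 0.00549 in N40K neurons and 0.0338 ± 0.00633 in control neurons (0.454).

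Among the damage signalling genes, the apical kinases and one mediator rose while the kinases they activate did not pass. Atr, the kinase that answers exposed single-stranded DNA, scored 0.0249, 0.0243 and 0.0303 in N40K neurons, against 0.0172, 0.0158 and 0.0164 in control neurons (log2 change 0.46 ± 0.08, SE; limma adjusted p = 0.013). Atm, the kinase that answers broken ends and is mutated in ataxia telangiectasia, scored 0.0113, 0.0138 and 0.0155 in N40K neurons, against 0.009, 0.0083 and 0.0083 in control neurons (0.34 ± 0.07; adjusted p = 0.0229). The groups were separate for both, but the call of Atr was lost on removal of control 2 or 3 (highest adjusted p = 0.0516) and that of Atm on removal of any 1 control library or N40K 2 (0.079). Trp53bp1, a mediator that steers breaks to end joining, scored 0.0062, 0.0072 and 0.0074 in N40K neurons, against 0.0046, 0.0038 and 0.004 in control neurons, and passed under each of the 17 other settings (0.26 ± 0.04; adjusted p = 0.00834).

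The downstream kinase genes Chek1 and Chek2 had log2 changes of -0.15 (limma adjusted p = 0.438) and 0.02 (0.946). Mdc1, which reads the histone mark at breaks, had a log2 change of -0.15 (0.451). The groups of these 3 genes overlapped, and the N40K libraries spread widely for Chek2, at 0.0167, 0.0059 and 0.0105.

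Mismatch repair was the pathway in which the members moved most alike. All 5 genes had every N40K score above every control score, and 4 rose, where the same held for 33.6% and 21.5% of all genes. The pathway was singled out after its values were seen. Msh3, whose protein finds insertion loops, scored 0.0058, 0.0056 and 0.0064 in N40K neurons, against 0.0024, 0.0024 and 0.0025 in control neurons. Its ratio was 2.44, and its log2 change of 0.36 ± 0.02 (SE; limma adjusted p = 0.00163) is damped by the added 0.01. Msh6, whose protein finds single mispairs, scored 0.0418, 0.0428 and 0.0434 in N40K neurons, against 0.0319, 0.029 and 0.0317 in control neurons, a ratio of 1.38 (adjusted p = 0.0121). Both calls held without each library in turn. By annotation Msh6 overlaps Fbxo11 on the opposite strand, and Msh3 also overlaps other genes.

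The genes that act after mismatch recognition had ratios above 1. Pms2, the nuclease of the pathway, averaged 0.0245 ± 0.002 in N40K neurons and 0.0167 ± 0.00141 in control neurons (SD, n = 3 each; limma adjusted p = 0.0182), a result lost on removal of control 1, control 2 or N40K 3 (highest adjusted p = 0.0635). Pms1 averaged 0.0112 ± 0.00225 in N40K neurons and 0.00563 ± 0.0016 in control neurons (adjusted p = 0.0309), a result lost on removal of control 2, control 3, N40K 1 or N40K 3 (0.0914). Mlh3, best known for its part in meiosis, had a ratio of 1.26 and did not pass (adjusted p = 0.109). Under median centring 2 mismatch repair genes rose, Msh3 and Msh6, and the calls of Pms1 and Pms2 were lost (0.0541 and 0.0692).

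**Figure D3:**
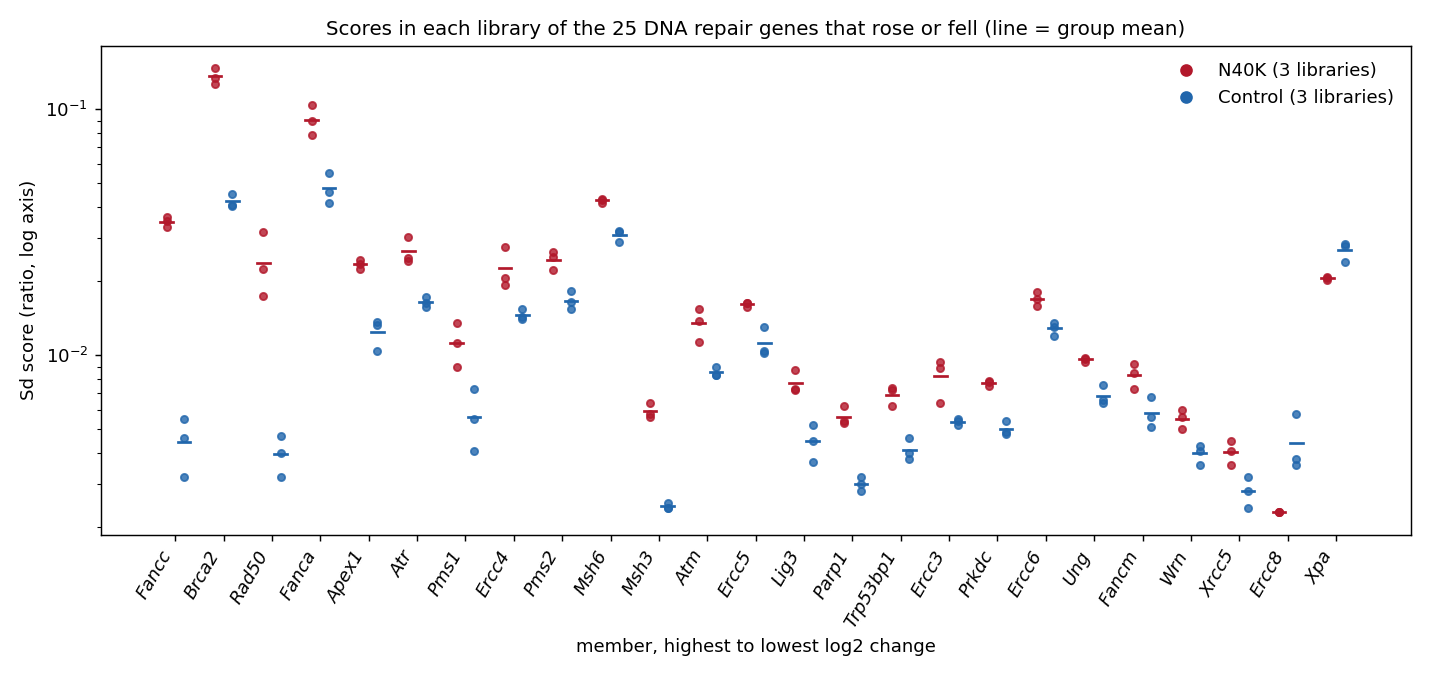
Sd score (log axis) in each of the 3 N40K libraries (red) and the 3 control libraries (blue) for the 25 members that passed, in order of their log2 change; lines mark group means. The groups do not overlap for any of these genes, which were picked for passing on these same scores, so the separation is no further result. Over all genes, every N40K score was higher than every control score in 33.6% and lower in 8.67%. Ercc8 and Xpa, at the right, are lower in N40K neurons.

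In base excision and single-strand break repair, which mends oxidised and lost bases, 4 of 9 members rose and 5 did not pass. Apex1, the endonuclease that cuts at lost bases, scored 0.0236, 0.0225 and 0.0245 in N40K neurons, against 0.0137, 0.0104 and 0.0133 in control neurons (log2 change 0.58 ± 0.08, SE; limma adjusted p = 0.00593). Parp1, the sensor of nicked DNA, scored 0.0053, 0.0054 and 0.0062 in N40K neurons, against 0.0032, 0.0028 and 0.003 in control neurons, a ratio of 1.88 (adjusted p = 0.00406). Both held under all settings in which they were tested, and Apex1, the shortest member at 2.17 kb, overlaps Pip4p1 on the opposite strand.

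Lig3, the ligase that works with XRCC1, scored 0.0073, 0.0072 and 0.0087 in N40K neurons, against 0.0052, 0.0037 and 0.0045 in control neurons (ratio 1.73; limma adjusted p = 0.0141), and the call was lost on removal of control 3 (0.0533). Ung, which removes uracil from DNA, scored 0.0098, 0.0097 and 0.0094 in N40K neurons, against 0.0076, 0.0066 and 0.0064 in control neurons (ratio 1.4; adjusted p = 0.0144). The call of Ung was lost on removal of control 2 or 3 (highest adjusted p = 0.0571) and under median centring (0.202).

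The other 5 genes of this route did not pass. Ogg1, which removes oxidised guanine, averaged 0.026 ± 0.00275 in N40K neurons and 0.0254 ± 0.000902 in control neurons (limma adjusted p = 0.874). Mutyh, which removes adenine set against it, averaged 0.0523 ± 0.0162 in N40K neurons and 0.0618 ± 0.019 in control neurons (0.618), the widest spread in the route. Xrcc1, the scaffold of nick repair, and Lig1, the ligase of replication, had ratios of 1.02 each, and the gap-filling polymerase gene Polb 1.18 with groups that did not overlap (adjusted p = 0.119).

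Nucleotide excision repair, which cuts out bulky lesions, was the pathway with changes in both directions. The factors that sense damage across the genome gave no call: Xpc had a log2 change of 0.14 (limma adjusted p = 0.626), Ddb1 of -0.01 (0.941) and Ddb2 of -0.03 (0.827). Xpa, the scaffold that verifies the lesion, scored 0.0208, 0.0207 and 0.0202 in N40K neurons, against 0.0283, 0.024 and 0.0278 in control neurons. It fell, with a ratio of 0.77 and a log2 change of -0.26 ± 0.07 (SE; adjusted p = 0.0402). Xpa overlaps Ncbp1 on the opposite strand, and the call was lost on removal of each library but control 2 (highest adjusted p = 0.12).

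Of the pair that detects stalled RNA polymerase and underlies Cockayne syndrome, one gene rose and one fell. Ercc8 scored 0.0023 in each N40K library, against 0.0058, 0.0038 and 0.0036 in control neurons, a ratio of 0.523 (limma adjusted p = 0.0398). Ercc6 averaged 0.017 ± 0.0011 in N40K neurons and 0.0129 ± 0.000819 in control neurons (SD, n = 3 each), a ratio of 1.32 (adjusted p = 0.0331). The call of Ercc8 was lost on removal of each library but control 1 (highest adjusted p = 0.103) and that of Ercc6 on removal of each library but N40K 1 (0.102). Under median centring Ercc8 still passed (0.00931) and Ercc6 did not (0.127).

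The nuclease and helicase genes of excision were divided as well. Ercc5, the nuclease that cuts downstream of the lesion, averaged 0.0161 ± 0.000289 in N40K neurons and 0.0112 ± 0.00156 in control neurons (limma adjusted p = 0.0225). Ercc4, the catalytic subunit of the nuclease that cuts upstream, averaged 0.0226 ± 0.0045 in N40K neurons and 0.0146 ± 0.000737 in control neurons (0.042), while its partner Ercc1 had a ratio of 1.04 (0.86). Ercc3, a helicase of TFIIH, averaged 0.00823 ± 0.00161 in N40K neurons and 0.00537 ± 0.000153 in control neurons (0.0473), and the other TFIIH helicase gene, Ercc2, had a ratio of 0.987 (0.88). Each of these 3 calls turned on single libraries: the call of Ercc5 was lost on removal of control 2 or 3 or any 1 N40K library (highest adjusted p = 0.0793), that of Ercc4 on removal of any 1 control library or N40K 2 (0.122), and that of Ercc3 on removal of each library but N40K 1 (0.129). Under median centring, and after quantile normalization, 0 of the 11 genes rose.

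In end joining, the route neurons use for broken ends, the DNA-dependent kinase gene rose. Prkdc scored 0.0075, 0.0078 and 0.0079 in N40K neurons, against 0.0054, 0.0049 and 0.0048 in control neurons, a ratio of 1.54 (limma adjusted p = 0.00498). The call held without each library, and was lost under median centring (0.0569). The subunit genes of Ku, the ring that caps broken ends, lay on opposite sides of 0. Xrcc5 scored 0.0036, 0.0045 and 0.0041 in N40K neurons, against 0.0032, 0.0024 and 0.0028 in control neurons, a ratio of 1.45 (adjusted p = 0.0348). Xrcc6 scored 0.0367, 0.0373 and 0.0403 in N40K neurons, against 0.0439, 0.0443 and 0.045 in control neurons, a ratio of 0.858 that did not pass (adjusted p = 0.0911).

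Neither Ku gene overlapped between groups, but for both it depended on the processing whether the gene passed. The call of Xrcc5 was lost on removal of control 2 or 3 or N40K 2 or 3 (highest limma adjusted p = 0.101). It was also lost under median centring (0.904), whereas Xrcc6 passed as a fall under that scaling (0.0171). Xrcc4, the partner of the end joining ligase, had the lowest scores of the members, at 0.0013, 0.0022 and 0.0019 in N40K neurons and 0.001, 0.0011 and 0.0011 in control neurons. The ratio was 1.69, without a call (adjusted p = 0.0653), and under median centring its log2 change turned to -0.04.

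**Figure D4:**
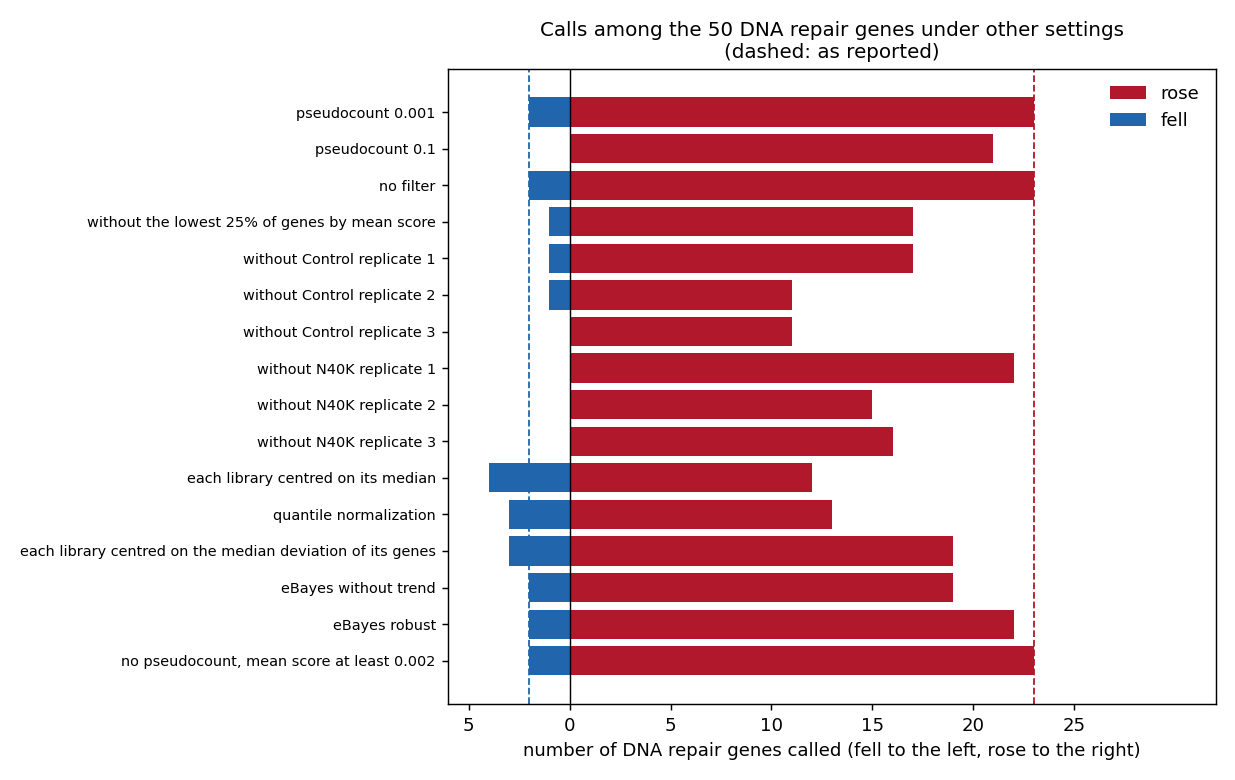
Number of the 50 repair genes that rose (red, to the right) or fell (blue, to the left) under other settings of the fit; dashed lines mark the 23 rises and 2 falls reported. Rises outnumber falls in every setting shown, where the fewest rises are 11, without control replicate 2 or 3, and the most falls 4, under median centring.

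The members share gene structure that did not enter their choice. All 50 matched the GENCODE M21 annotation, against 94.9% of all genes. They had a median of 15 introns and a length of 36.4 kb, against 8 introns and 25.5 kb over all annotated genes, and 36 of them (72.0%) have an annotated transcript with a retained intron, against 54.4%. The members that rose had medians of 20 introns and 56.5 kb, and those that did not pass 15 introns and 27.2 kb. Log2 change and length had a Spearman rho of 0.31 across the members and 0.24 across all annotated genes. These genes share libraries and are not independent replicates, so the rho is a description. Apex1, at 2.17 kb, rose, and Xrcc4, at 316 kb, did not pass.

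**Figure D5:**
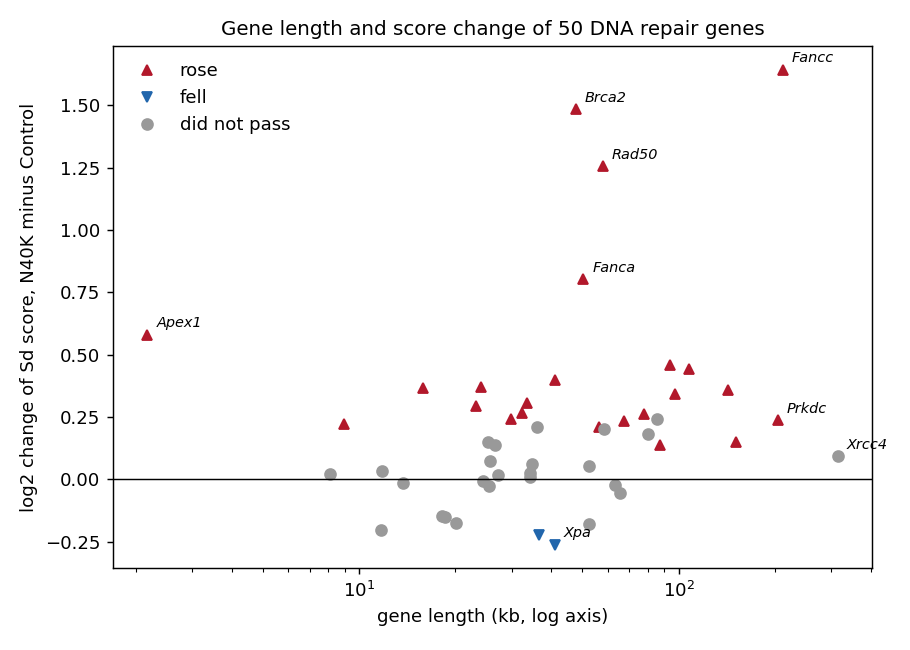
Gene length (kb, log axis) against the log2 change of the score (N40K minus control) for the 50 repair genes, with rises as red triangles, falls as blue triangles and genes that did not pass in grey. Most of the members lie above 20 kb, and so do most rises. Apex1 (2.17 kb), Ung and Msh6 are the rises below that length.

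By the same annotation 33 members (66.0%) overlap another gene, against 59.2% of all annotated genes, and where strand was not used the score of one gene can hold reads of its neighbour. Of these, 15 rose and 1 fell. Among the 17 members that overlap no other gene, 8 rose and 1 fell, with a highest ratio of means under 2. Over all annotated genes 24.8% of those that overlap another gene and 17.6% of those that overlap none rose. These rises were in Wrn, Atm, Ercc3, Ercc4, Ercc5, Ercc6, Ung and Xrcc5, and the fall was in Ercc8. The 4 members with a ratio of at least 2, Fancc, Rad50, Brca2 and Msh3, all overlap another gene. At least that ratio was reached by 780 of 8829 genes that overlap another and 384 of 6082 that overlap none. Rad50 and Brca2 overlap no protein-coding gene. Counted by protein-coding neighbours alone, 8 of the 21 members with such an overlap rose (38.1%) and 15 of the 29 without (51.7%). Each of these 2 sets holds 2 members with a ratio of at least 2. A link between overlap and the changes was not tested.

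A wider list of 126 repair genes outside the members, drawn up by pathway, had 115 with a score. Of these, 34 rose (29.6%) and 2 fell (1.74%), with a median log2 change of 0.12. Over all genes 21.5% rose and 4.11% fell, with a median of 0.06. By pathway, mismatch repair again had the highest share of rises, with 3 of 3. Nucleotide excision repair had 8 of 18 (44.4%), homologous recombination 8 of 23 (34.8%) and end joining 2 of 6 (33.3%). The Fanconi pathway had 3 of 10, and translesion synthesis and direct reversal 3 of 11 (27.3%). Damage signalling had 3 of 16 (18.8%) and base excision repair 4 of 28 (14.3%), both under the share over all genes. Below mismatch repair the order was unlike that of the members. Rfc5, a subunit of the clamp loader of DNA synthesis, scored 0.0852, 0.0826 and 0.0881 in N40K neurons, against 0.0293, 0.0327 and 0.0285 in control neurons (log2 change 1.25 ± 0.07, SE; limma adjusted p = 0.00136). Of the recombination genes, Rad54l, a translocase of strand exchange, had a ratio of 2.42, the structural maintenance gene Smc6 1.58, the helicase genes Recql and Recql5 1.71 and 1.68, and the nuclease subunit gene Eme2 1.73. Rises with similar p-values were in Cul4b of nucleotide excision repair, in Tdp2, which frees ends from trapped topoisomerase, and in Rif1, a partner of the mediator encoded by Trp53bp1, with ratios of 1.47, 1.48 and 1.68; the log2 change of Cul4b turned to -0.01 under median centring. Limma adjusted p-values of these 9 genes ran from 0.00136 to 0.0101, and each kept its call without each library in turn. The meiotic gene Msh5 rose with a ratio of 2.11 (limma adjusted p = 0.0444). The 2 falls were both in end joining, in the nuclease gene Dclre1c (ratio 0.711; 0.0168) and the polymerase gene Poll (0.645; 0.0223), and both were lost on removal of each control library. The call of Msh5 was lost on removal of each library but control 1 (highest adjusted p = 0.124). Under median centring Msh5 did not pass (0.058), while Dclre1c and Poll did (0.012 and 0.0137). These 3 genes were named after their values were seen.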

How the data were processed

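The authors deposited 1 table of Sd scores, which behave as a linear ratio with 4 decimals; per the submitters' processing notes CASAVA, STAR, BWA, bedtools 2.16.1 and the build mm9 were used, with no role or order. How the authors computed, scaled and filtered the score, and whether strand was used, is not given in the sources used here. Columns were matched to libraries by name, with 0 value columns unused. The test was limma 3.58.1 (R 4.3.3; lmFit and eBayes with trend, 2-sided) on log2(score + 0.01), over all genes with a score above 0 in at least 3 libraries, with Benjamini-Hochberg adjustment and a threshold of 0.05. The added 0.01 damps log2 changes of low scores, so ratios of mean scores are given beside it. The members and gene lists were chosen with earlier results of these data known. Genes named are all members that passed, the members with the highest and lowest change in each pathway and the highest and lowest scores, and 10 other repair genes with the smallest p, of which 1 is not reported here; others were named after their values were seen. Gene structure and exon ends came from GENCODE M21 (GRCm38, another build than mm9), from 1 principal transcript a gene, matched by Ensembl identifier; the authors' annotation may differ. The fit was also run on simulated libraries with independent noise and a small share of genes changed, as many up as down. The simulation held no shift shared by all genes, so it cannot say how the calls fare under such a shift. As 17 alternatives the fit was repeated without each library, with 3 scalings (median, quantile and median-deviation), with a pseudocount of 0.001 or 0.1, unfiltered, with the lowest 25% of mean scores dropped, with the replicate number as a block, with eBayes robust or without trend, and with no pseudocount at a mean score of at least 0.002. The main filter left out no gene, so the unfiltered fit was the same as the main fit and its result was fixed in advance.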

Additional observations from a re-analysis of the deposited data

How the results depend on the processing

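Of the 25 calls among the members, 6 held in all of the 17 alternatives, each of which tested them (Fancc, Brca2, Rad50, Fanca, Apex1 and Trp53bp1) and 10 held without each library in turn. The unfiltered alternative could not change a call, as it was the same as the main fit. Leaving out 1 library gave 11 to 22 rises and 0 to 1 falls among the members, and 11 to 37 rises and 0 to 2 falls among the 115 other repair genes. Over all genes 10.3% to 23.7% then rose and 1.93% to 3.09% fell. Under median centring, 12 members rose and 4 fell, 18 other repair genes rose and 13 fell, and the median log2 change of the members was 0.04; over all genes 9.75% then rose and 18.4% fell. Quantile normalization gave 13 rises among the members, 18 rises and 9 falls among the other genes, and a median of 0.06. Pseudocounts of 0.001 and 0.1 gave medians of 0.34 and 0.04, and no pseudocount a median of 0.32. At 0.1, 21 members rose and 0 fell, against 20.5% and 3.9% of all genes. Without the lowest 25% of genes 17 of 42 members rose and 1 fell, against 16.7% and 4.1% of the 11773 genes then tested. The log2 change turned in sign in 9 members under median centring and in 9 under quantile normalization, none of them called. Under both these were Palb2 (-0.06 and -0.03), Mre11a, Nbn, Chek2, Ercc1, Lig1, Xrcc1 and Ogg1, with Xrcc4 (-0.04) under median centring and Xpc (-0.01) under quantile normalization. That of Cul4b turned to -0.01 under median centring, and that of Lig1 turned to -0.12, -0.06 and -0.06 under the 3 scalings. Without 1 library the change of Palb2 lay between -0.22 and 0.24, of Lig1 between -0.02 and 0.04 and of Ddb2 between -0.05 and 0.01. The cause of these shifts was not tested. Same-numbered libraries did not deviate together (correlations of -0.071, 0.038 and -0.02). No pairing by number was seen, but so few libraries cannot exclude that same-numbered ones share a culture. With the replicate number as a block 11 members rose and 0 fell, and 21 and 0 of the other genes. In that fit 11.3% of all genes rose and 2.09% fell. Depth is unknown, and the last decimal limits scores such as those of Xrcc4 and Ercc8.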
